A study of Mus musculus with 14 samples.

Results

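Abundant structural noncoding RNAs were examined in total and ribosome-bound RNA of the mouse testis, as 7 genes chosen by name: Rn7s1, Rn7s2, Rn7sk, Rmrp, Rpph1, Rny1 and Rny3. They are 7 of the 53239 gene symbols in the 14 tables, and 5 of them had counts. The groups were ribosome-bound RNA (IP) and total RNA (input) of the same testes, from 4 Adad2 M/M animals (MUT, numbered 12, 69, 93 and 94) and 3 Adad2 +/+ animals (WT, numbered 121, 140 and 17), all C57BL/6 males at 21 days. All 7 animals were also heterozygous for Rpl22-HA (RiboTag, a ribosomal protein carrying an epitope tag) and for Stra8-iCre, which switches the tag on in differentiating germ cells. The input therefore came from every cell of the testis, and the anti-HA precipitate from tagged ribosomes of the germ line.

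These RNAs are made in all cells and work as the RNA core of protein complexes. 7SL, encoded by Rn7s1 and Rn7s2, is the scaffold of the signal recognition particle, which binds ribosomes that make secreted and membrane proteins. 7SK (Rn7sk) holds the elongation kinase P-TEFb inactive in the nucleus, RNase MRP RNA (Rmrp) acts in the nucleolus on ribosomal RNA precursors, and RNase P RNA (Rpph1) cuts the 5′ leader from transfer RNA precursors. The Y RNAs (Rny1, Rny3) are bound by the Ro60 protein. All are transcribed by RNA polymerase III and carry no long poly(A) tail, so the ribosomal RNA-depleted libraries used here can hold them.

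Positions are those of GRCm38 in GENCODE M21. Rn7s1 (ENSMUSG00000099021.1) is at chr12:69159295-69159594 on the plus strand, and Rn7s2 (ENSMUSG00000099250.1) at chr12:69361182-69361481 on the minus strand. Their 300 bases are identical, and their expected counts were equal in all 14 libraries, because reads cannot be assigned to one copy; they are summed as 7SL below. Rn7sk (ENSMUSG00000065037.1) is at chr9:78175303-78175633, Rpph1 (ENSMUSG00000092837.1) at chr14:50807449-50807767 and Rmrp (ENSMUSG00000088088.1) at chr4:43492788-43493058, all on the minus strand. A second Rmrp entry (ENSMUSG00000115420.1, 281 bases), which contains the first, was at 0 in every library. Rpph1 overlaps 1 exon of the protein-coding gene Ccnb1ip1 on the same strand, and Rmrp 1 exon of Ccdc107 on the opposite strand. Rny1 (ENSMUSG00000065701.1, chr6:47788069-47788180, minus) and Rny3 (ENSMUSG00000064945.1, chr6:47781624-47781725, plus) are 6343 bases apart. Near copies in the annotation took few counts: 1 other transcript was at least 90% identical to 7SL over 80% of its length, and it held at most 0.0138% of the 7SL counts. Assembled transcripts and unannotated copies in the genome were not searched.

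The sequences below are transcripts of that annotation, 5′ to 3′, shown because length and sequence decide what could be counted. In Rn7sk (bases 1 to 110) the capitals mark GATC, a motif bound by HEXIM proteins, at positions 13, 42 and 64. In Rmrp (whole) and Rpph1 (bases 1 to 130) they mark GGAANGTC, which both RNAs hold, at positions 67 and 60. In the Y RNAs they mark TTTT at the 3′ end, the terminator of RNA polymerase III.
Rn7sk: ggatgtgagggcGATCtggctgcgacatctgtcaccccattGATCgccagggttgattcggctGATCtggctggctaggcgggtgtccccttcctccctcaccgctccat
Rmrp: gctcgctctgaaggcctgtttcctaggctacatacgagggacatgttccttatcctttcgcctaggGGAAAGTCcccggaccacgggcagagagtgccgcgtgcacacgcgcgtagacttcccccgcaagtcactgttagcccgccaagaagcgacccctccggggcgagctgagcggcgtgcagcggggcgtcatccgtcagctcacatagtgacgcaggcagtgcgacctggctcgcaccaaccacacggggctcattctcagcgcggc
Rpph1: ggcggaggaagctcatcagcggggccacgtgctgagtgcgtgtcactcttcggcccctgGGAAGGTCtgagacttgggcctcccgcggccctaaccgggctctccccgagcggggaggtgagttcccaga
Rny1: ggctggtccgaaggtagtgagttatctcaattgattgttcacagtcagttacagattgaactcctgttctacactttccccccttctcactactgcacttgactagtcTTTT
Rny3: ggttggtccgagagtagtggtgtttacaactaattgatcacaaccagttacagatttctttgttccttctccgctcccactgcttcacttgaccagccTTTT

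Of 5627 annotated transcripts of 250 to 350 bases, 63.3% held GATC on the RNA strand (a palindrome, so the other strand gives the same) and 7.50% held it 3 times or more. GGAANGTC was in 2.06% of them on the RNA strand and in 4.87% on either strand. TTTT closed 21.95% of 2018 transcripts of 100 to 120 bases, and 22.2% on either strand. Rny1 and Rny3 shared 81 aligned bases, 72.3% of the longer RNA.

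Totals were 25037235 to 30871330 expected counts in IP libraries and 22987974 to 30330450 in input libraries, spike-ins included. The MUT libraries stood apart from WT: they held 12744 to 15024 gene symbols above 0 in IP against 19655 to 21880 in WT IP, and 15438 to 27002 in MUT input against 25319 to 27791 in WT input. Their mean fragment length was 153 to 155 bases in IP against 160 to 164 in WT IP, and 156 to 171 in MUT input against 168 to 174 in WT input. MUT input 94 was within the WT input range for both measures. Summed levels of 6 markers of differentiating germ cells were 3693 to 3976 CPM in MUT IP, 3186 to 3670 in WT IP, 1437 to 1564 in MUT input and 1353 to 1556 in WT input. Those of 5 Sertoli cell markers were 11.4 to 32.3, 24.0 to 61.6, 173 to 237 and 154 to 197 CPM in the same order.

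7SL was the most abundant RNA of the input and a small part of the IP. It took 0.316%, 0.458%, 0.935% and 0.869% of all counts in MUT IP (animals 12, 69, 93 and 94), against 0.580%, 0.801% and 0.242% in WT IP (animals 121, 140 and 17). In input it took 13.0%, 12.5%, 12.7% and 11.2% in MUT, against 6.89%, 8.09% and 9.45% in WT. The IP and input ranges were far apart, and within IP the animals of both genotypes were spread over the same range. TPM divides by length and adds up to a fixed total. Places by TPM were taken among all 182829 entries, which are single transcripts and spike-ins, not sums per gene. By this measure Rn7s1 was in place 1 or 2 in the IP libraries, Rpph1 in places 10 to 18, Rn7sk in 14 to 38 and Rmrp in 110 to 563. In each of the 7 input libraries Rn7s1 and Rn7s2 shared place 1, ahead of Rn7sk in place 3, Rpph1 in 4 and Rmrp in 5.

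Rn7sk took 0.0539%, 0.0262%, 0.0541% and 0.0469% of counts in MUT IP, against 0.0433%, 0.0550% and 0.0408% in WT IP. Its input shares were 3.09%, 1.69%, 2.37% and 2.25% in MUT, against 1.77%, 2.16% and 2.08% in WT. In input 3 mutants were above and 1 was below all WT animals. Rpph1 took 0.0415%, 0.0461%, 0.0729% and 0.0734% in MUT IP, against 0.0458%, 0.0705% and 0.0378% in WT IP. Its input shares were 0.821%, 0.691%, 0.623% and 0.590% in MUT, against 0.300%, 0.492% and 0.573% in WT, so that the genotypes did not overlap there. Rmrp was the rarest of those counted. In IP it had 558, 950, 1664 and 1612 expected counts in MUT, against 844, 1787 and 768 in WT, or 0.00214% to 0.00563% against 0.00254% to 0.00730% of counts. In input it took 0.143%, 0.144%, 0.175% and 0.269% in MUT, against 0.0933%, 0.175% and 0.182% in WT, and the genotypes overlapped in both fractions. Counting error was small beside these differences, with a Wilson 95% interval of at most 8.30% of the share on either side; such intervals cover counting error alone.

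**Figure D1:**
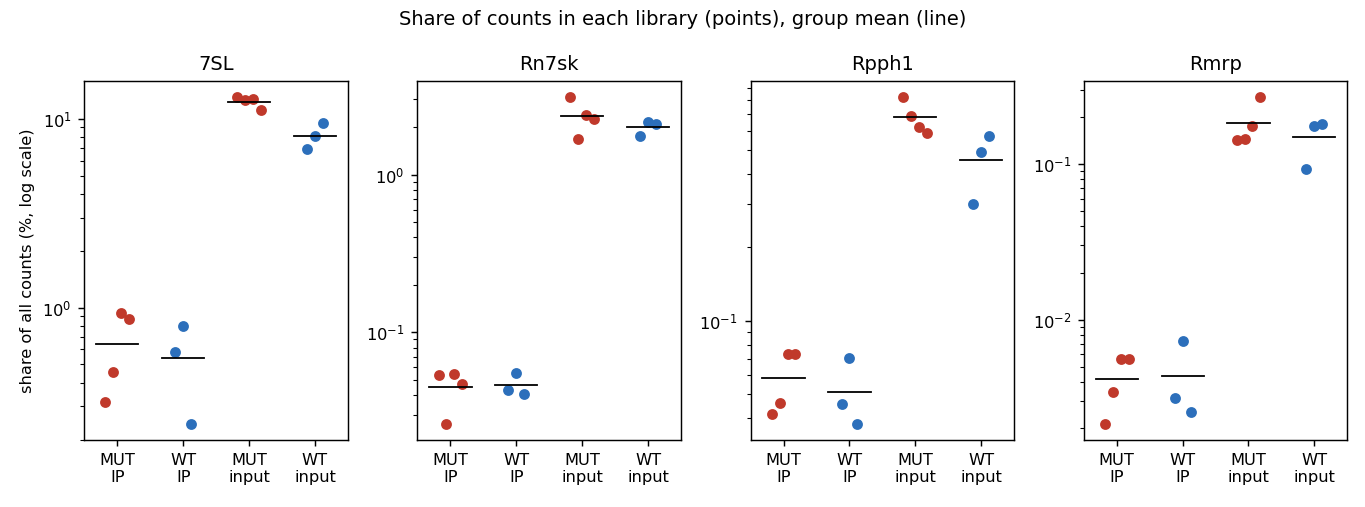
Share of all counts (%, log scale) taken by 7SL (Rn7s1 and Rn7s2 summed), Rn7sk, Rpph1 and Rmrp in each library, with a line at the group mean, for MUT IP, WT IP, MUT input and WT input. Every IP library lies below every input library, for 7SL at 0.242% to 0.935% against 6.89% to 13.0%.

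Rny1 and Rny3 had 0 counts in all 14 libraries, which as counting error alone would allow a share of up to 1.31e-05% (3 counts of the smallest total). That limit does not apply as it stands, because the authors' quantification gave Rny1 an effective length (the number of positions where a fragment could start) of 0 to 1.39 bases and Rny3 one of 0. At 112 and 102 bases both RNAs are shorter than the mean fragment of every library. Of 3991 Ensembl entries of 112 bases or less, 10 (0.251%) were above 0 in any library, against 209 of 2304 entries (9.07%) of 113 to 160 bases and 2415 of 5266 (45.9%) of 250 to 350 bases. Among entries of exactly 102 bases 1 of 67 was above 0, and among those of 112 bases 0 of 41. The Y RNAs were therefore hardly measurable at these fragment lengths, and their 0 says nothing of their presence in the testis. The effective lengths of the others were 132 to 149 bases for 7SL, 161 to 180 for Rn7sk, 150 to 168 for Rpph1 and 105 to 120.5 for Rmrp.

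IP was compared with input to ask how much lower each RNA was with tagged ribosomes than in the whole testis. The input also held RNA of untagged cells, and no library lacked the tag. Ribosome binding, cell type and carry-over therefore cannot be told apart in this ratio. All 4 RNAs were lower in IP than in input in 7 of 7 animals. Of 16070 features measured in every input library, 27.6% were lower in IP in all 7 animals. On CPM (counts scaled to library size with TMM factors), the mean log2 ratio of IP to input over the 7 animals was -5.33 ± 0.31 for Rn7sk (40.1-fold lower), -5.10 ± 0.64 for Rmrp (34.4-fold), -3.98 ± 0.87 for 7SL (15.8-fold) and -3.12 ± 0.66 for Rpph1 (8.67-fold; SD, n = 7). These folds depended on the scale: on TPM they were 27.7 for Rn7sk, 23.9 for Rmrp, 10.9 for 7SL and 5.99 for Rpph1, and per spike-in count 175, 150, 68.7 and 37.8, where the amount of spike-in RNA added is not given in the sources used here. Each gave p = 0.0156 in the exact two-sided sign-flip test, the smallest that 7 animals allow. The ratio of 7SL varied most between animals: its log2 value was -5.11, -4.51, -3.56 and -3.58 in MUT 12, 69, 93 and 94, against -3.14, -2.98 and -4.97 in WT 121, 140 and 17. That of Rn7sk varied least, from -5.75 to -5.26 in MUT, against -5.36 to -4.92 in WT. MUT 12 and WT 17 had the lowest ratios of 7SL, Rpph1 and Rmrp within their genotypes.

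**Figure D2:**
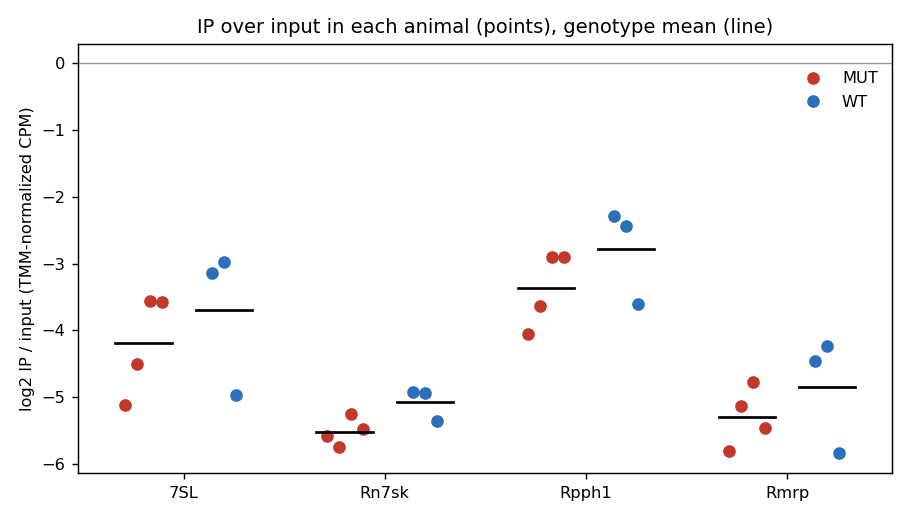
Log2 ratio of IP to input (TMM-normalized CPM) of 7SL, Rn7sk, Rpph1 and Rmrp in each of 4 MUT and 3 WT animals, with a line at the genotype mean. All points lie below 0, the line of equal level, and Rpph1 lies highest in every animal, at -4.05 to -2.28.

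In the fit across all features, Rn7s1, Rn7s2, Rn7sk, Rmrp and Rpph1 fell in IP in both genotypes. In mutants these 5 were called lower beside 3.56% of the 22918 features tested, with log2 fold changes of -5.75 (SE 0.13) for Rn7sk, -5.53 (SE 0.22) for Rmrp, -4.42 (SE 0.42) for Rn7s1 and -3.60 (SE 0.30) for Rpph1. The edgeR quasi-likelihood test gave Benjamini-Hochberg adjusted p values of 2.27e-04, 6.18e-04, 0.00903 and 0.00518 for these. In wild type the same 5 were called lower beside 6.37% of 34864 features, with log2 fold changes of -5.06 (SE 0.15) for Rn7sk, -4.82 (SE 0.42) for Rmrp, -3.67 (SE 0.51) for Rn7s1 and -2.76 (SE 0.33) for Rpph1, and edgeR adjusted p values of 0.00634, 0.00801, 0.0186 and 0.0133. The median feature was at -0.63 in mutants and -0.60 in wild type. In mutants 13.9% of features lay below Rn7sk, 14.9% below Rmrp, 20.8% below Rn7s1 and 24.6% below Rpph1. The same shares in wild type were 6.94%, 7.66%, 12.6% and 18.1%. Without MUT 93 the call of Rn7s1 and Rn7s2 in mutants was lost (adjusted p = 0.0539), and without WT 121 or without WT 140 all 5 calls in wild type were lost (adjusted p from 0.0617 to 0.0974), with log2 fold changes of -5.16 to -2.92. Without either of these the fit called 0 features in all, of 36015 and 36735 tested, so this loss is not particular to these genes; at an unadjusted p under 0.05 it had 3136 and 3708 lower.

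The 4 RNAs were not depleted alike. Rpph1 kept more of its input level than Rn7sk by 4.63-fold, than Rmrp by 3.96-fold and than 7SL by 1.82-fold. 7SL in turn kept 2.54-fold more than Rn7sk and 2.18-fold more than Rmrp. Each of these 5 differences had the same sign in 7 of 7 animals (exact sign-flip p = 0.0156, adjusted over 6 pairs 0.0187). This p is the smallest that 7 animals allow. The comparisons were chosen after seeing the data, and the 6 pairs share 4 RNAs, so they are not independent. Rn7sk and Rmrp differed by -0.22 on the log2 scale (SD 0.46, from -0.71 to 0.49), with the same sign in 5 of 7 animals and an exact p of 0.266. Since these are ratios within a library, no scaling factor per library alters them. Rpph1 overlaps 1 exon of Ccnb1ip1 on the same strand, and what reads of that gene add to its counts was not tested. In TPM, Rpph1 exceeded Rmrp by 13.97, 9.70, 9.36 and 9.37 times in MUT IP and by 10.3, 6.88 and 10.6 times in WT IP, against 4.13, 3.44, 2.55 and 1.54 times in MUT input and 2.26, 1.98 and 2.22 times in WT input.

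Mutants were compared with wild type in input to ask whether Adad2 loss came with other RNA levels in the testis. 7SL averaged 12.4% ± 0.80 of counts in MUT input (n = 4) and 8.14% ± 1.28 in WT input (SD, n = 3), a difference of 4.21 percentage points or 1.52-fold, with every mutant above every WT animal. Rpph1 was 1.50-fold higher in MUT input and also did not overlap. Every mutant was above every WT animal in share of counts for 3.45% of the 36572 features tested. The exact two-sided permutation test gave p = 0.0571 for both, which is the smallest that 35 splits of 4 and 3 animals can give when the smaller tail is doubled, so this test cannot reach 0.05; counting splits by the absolute difference gives 0.0286. Rn7sk (p = 0.343) and Rmrp (p = 0.514, exact permutation test) overlapped between genotypes. As a share of TPM, 7SL still did not overlap, at 54.7%, 56.0%, 56.0% and 54.6% in MUT input against 44.5%, 46.5% and 50.3% in WT input, whereas Rpph1 did (exact permutation p = 0.343).

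**Figure D3:**
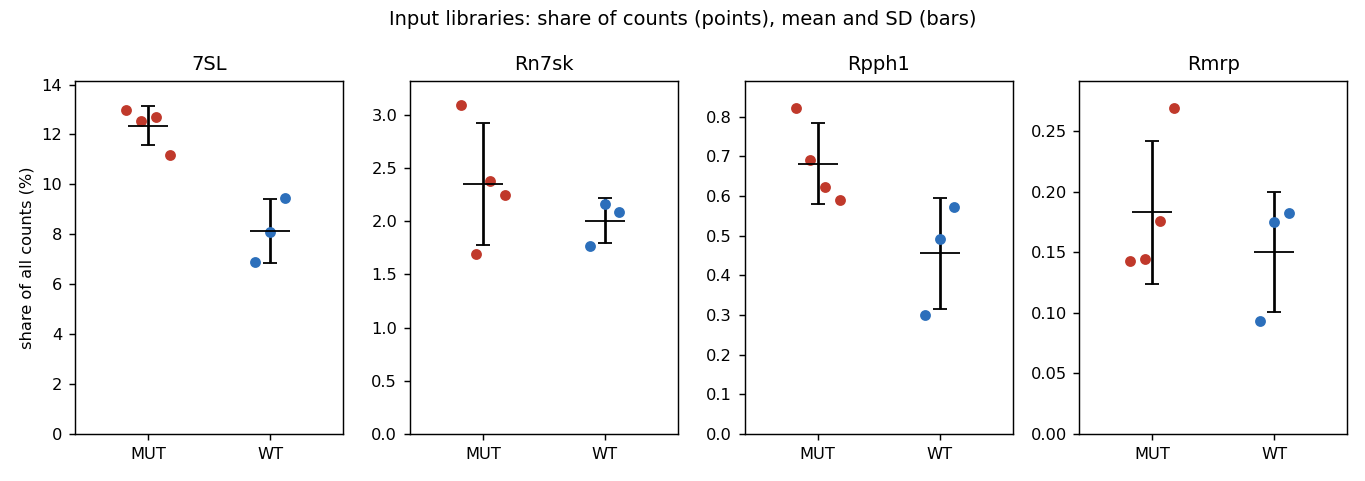
Share of all counts (%, linear axes from 0) of 7SL, Rn7sk, Rpph1 and Rmrp in the input libraries of 4 MUT and 3 WT animals, with mean and SD. 7SL and Rpph1 do not overlap between genotypes, at 11.2% to 13.0% in MUT against 6.89% to 9.45% in WT for 7SL, while Rn7sk and Rmrp overlap.

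Across all features none of the 5 counted genes was called between genotypes in input by edgeR, where 0.00547% of features were called higher. The log2 fold change was 0.53 (SE 0.12) for Rn7s1 and for Rn7s2, with an edgeR adjusted p of 0.347 and an unadjusted p of 0.00235, and 0.51 (SE 0.22) for Rpph1, 0.22 (SE 0.32) for Rmrp and 0.16 (SE 0.20) for Rn7sk, with adjusted p of 0.818 or more. The median feature was at -0.18. DESeq2 called Rn7s1 and Rn7s2 higher in mutants (log2 fold change 0.60, adjusted p = 0.00273), along with 0.962% of features, and limma on log2(TPM + 1) gave them 0.23. Of the cell type markers, those of round spermatids and macrophages did not overlap between genotypes in the input libraries. Those of differentiating germ cells and Sertoli cells did, as given above. Summed round spermatid markers (4 genes) were at 11.7 to 27.8 CPM in MUT input against 37.3 to 41.9 in WT input, and at 17.0 to 35.7 in MUT IP, with Tnp1 and Prm1 at 0 in all 4 libraries, against 56.4 to 77.3 in WT IP. The MUT IP libraries also held fewer genes above 0 than WT IP, as given above. Summed macrophage markers (3 genes) were at 23.8 to 32.3 CPM in MUT input against 16.5 to 23.1 in WT input. Blood markers (2 genes, 103 to 318 against 54.7 to 144 CPM) and Leydig cell markers (4 genes, 157 to 313 against 142 to 198 CPM) overlapped in input. Fragment length and the number of genes above 0 overlapped through MUT 94 alone. MUT 12, 69 and 93 had 156 to 159 bases and 15438 to 21334 genes, against 168 to 174 and 25319 to 27791 in WT input. MUT 94 also had the lowest MUT input shares of 7SL (11.2%) and Rpph1 (0.590%). The part of cell types, fragment length or gene detection in the 7SL and Rpph1 shares was not tested. In such bulk samples, fewer cells of a type and less RNA per cell cannot be told apart.

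In IP the genotypes overlapped for all 4 RNAs. The log2 fold changes of MUT against WT were 0.09 (SE 0.50) for Rn7s1, 0.04 (SE 0.28) for Rpph1, -0.18 (SE 0.25) for Rn7sk and -0.20 (SE 0.46) for Rmrp, none called by edgeR, where 0.00764% of 26186 features were called in either direction. In that fit the median feature was at -0.15. The ratio of IP to input did not pass the test for a genotype difference either. Its log2 difference between MUT and WT was -0.38 (SE 0.16) for Rn7sk, -0.40 (SE 0.42) for Rmrp, -0.44 (SE 0.62) for Rn7s1 and -0.53 (SE 0.43) for Rpph1, with edgeR adjusted p of 0.691 or more. With 1 animal left out these values moved widely and none was called: Rn7s1 ran from -1.20 without WT 17 to -0.13 without MUT 12, Rpph1 from -1.08 to -0.30 and Rmrp from -1.03 to -0.22 without the same animals, and Rn7sk from -0.66 without WT 17 to -0.33 without MUT 69. For this interaction edgeR called 0.0% of 16070 features, with 76 features up and 1085 down at a raw p below 0.05, and DESeq2 called 35 higher and 942 lower, with none of the 5 genes among them. In the edgeR fit the median feature was at -0.29. Between 40.4% and 45.9% of features lay below each of the 5 genes, so their negative values were near those of features at large.

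The share of the library that these RNAs took set the scale of every other TPM value. The 7 genes summed took 3.20% to 8.11% of TPM in the IP libraries, against 69.3%, 65.8%, 68.1% and 67.7% in MUT input and 56.2%, 60.4% and 63.3% in WT input. As TPM adds up to a fixed total, all other entries together were left with IP over input ratios of 3.13, 2.79, 2.88 and 2.86 in MUT, against 2.14, 2.32 and 2.63 in WT. The means were 2.92 ± 0.15 and 2.37 ± 0.25 (SD, 1.23-fold), without overlap. These ratios follow from the TPM shares of the 7 genes alone, so they restate those shares and are no further result. Of 16077 features above 0 in every input library, 63.2% had a higher mean TPM ratio in MUT than in WT. Once TPM was rescaled without the 7 genes this share was 44.2%, and on TMM-normalized CPM it was 39.4%. Over features above 0 in all libraries, the median log2 difference between MUT and WT was 0.19 on TPM as deposited, -0.11 on rescaled TPM and -0.14 on CPM, so its sign changed with the scale.

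**Figure D4:**
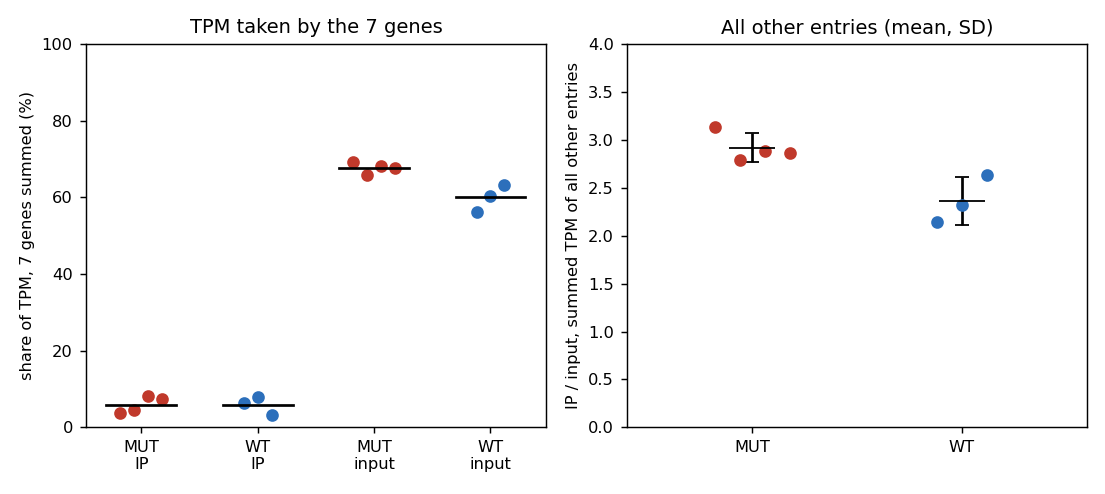
Left, share of TPM (%) taken by the 7 genes summed in MUT IP, WT IP, MUT input and WT input, with a line at the group mean. Right, ratio of IP to input of the summed TPM of all other entries in each MUT and WT animal, with mean and SD; the MUT animals lie at 2.79 to 3.13 and the WT animals at 2.14 to 2.63.

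Messenger RNAs of proteins that bind or make these RNAs were read against all protein-coding genes, of which 9.78% were called higher and 4.57% lower in IP in mutants, and 24.8% higher and 7.76% lower in wild type. The lists were not tested against that background. In mutants, between 1 and 2 genes of each list rose and none fell, among them Srp14 at 1.02 on the log2 scale, Cdk9 at 1.82, Pop1 at 2.55 and Ssb at 1.43. In wild type, 4 of 11 RNase P and MRP protein genes rose in IP and none fell (median log2 fold change 0.58), among them Pop1 at 2.20, which encodes the largest protein of both enzymes. Of the 7 genes of the 7SK particle and P-TEFb, 4 rose, with the kinase gene Cdk9 at 1.56, and 1 fell, the cyclin gene Ccnt1 at -1.15 (median 0.54). Of 10 genes of the signal recognition particle and its receptor, 3 rose, with Srp14 at 1.20 and Srp68 at 1.31, and 1 fell (median 0.23). Ssb, which encodes La, rose by 1.65, while Trove2, which encodes Ro60, was at -1.01 and not called. Of the 10 polymerase III promoter factors, 5 rose, with Snapc1 at 1.78, and of 10 polymerase III subunits 5 rose and 1 fell. None of these genes was called between genotypes in input, in IP or in the ratio.

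Some other structured RNAs were too low for a measured ratio: Rnu3b1, a small nucleolar RNA, was at 0 CPM in all MUT IP libraries, so that fitted fold changes of such genes depend on the prior count. Counted by sign, the fitted value was below 0 for 7 of 7 small nuclear, 10 of 10 small nucleolar and 4 of 4 small Cajal body RNAs tested in mutants, with 2 of the last called lower, and for 3 of 5 other genes of the type misc_RNA. In wild type it was below 0 for 8 of 8 small nuclear RNAs (4 called lower), 14 of 14 small nucleolar RNAs (2 called), 6 of 6 small Cajal body RNAs (2 called) and 9 of 9 misc_RNA genes (none called). Protein-coding genes had a median of -0.13 in mutants and 0.19 in wild type. The median over all features was -0.63 and -0.60, with 3.56% and 6.37% of features called lower. Genes of the type lincRNA were also mostly below 0, at 434 of 505 in mutants (median -3.53) and 851 of 946 in wild type (median -1.65). Of these lincRNA genes tested, 13 in mutants and 65 in wild type were called lower, and 0 and 6 higher. By the sign of the fitted value alone, a fall in IP was thus not particular to structured RNAs. The nuclear long noncoding RNA Malat1 fell by 2.01 in mutants and by 1.59 in wild type on the log2 scale.

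The genes whose levels over the 14 libraries were most like these RNAs, among 8722 gene symbols, were often one another. By Pearson's r of log2 CPM, Rn7s1 was closest to Rpph1 (0.991) and Rmrp (0.986), and Rpph1 to Rn7s1 and Rn7s2. Rn7sk was closest to Gm28437 (0.993), a pseudogene, to mt-Co1 (0.991), a subunit of cytochrome oxidase encoded in the mitochondrion, and to Purb (0.983). The 14 points are IP and input of 7 animals, all of these genes averaged lower in IP, and Gm28437 may share reads with mitochondrial genes of like sequence, which was not tested.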

How the data were processed

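Total and ribosome-bound RNA of 7 testes were sequenced as stranded, ribosomal RNA-depleted, paired-end libraries. The authors removed ribosomal reads with Bowtie2, trimmed reads to 100 bases and quantified Ensembl release 90 (GRCm38) plus assembled testis transcripts with RSEM 1.3.3. Expected counts were deposited by the authors without normalization, and TPM values were deposited from the same run, scaled over all entries. Each table held 182829 entries, of which 92 were spike-ins, left out of totals.

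Entries were summed per gene symbol with GENCODE M21. Rounded expected counts were tested in edgeR 4.0.16 (TMM, filterByExpr, robust quasi-likelihood) over all features, at an adjusted p under 0.05, with the animal as a block where IP met input. Shares and IP over input ratios were tested by exact permutation (35 splits, the smaller tail doubled, as scipy 1.17.1 gives it) and by exact sign flips (128 patterns). With the absolute difference as statistic the smallest p of the former is 0.0286 in place of 0.0571; the doubled tail was taken as the main value after both had been seen. The edgeR fits of some comparisons were checked on simulated counts that held no differences between animals. The exact tests were checked on values with known answers. Near copies were sought with BLAST 2.17.0 among GENCODE M21 transcripts alone. The sequence of 7SL is not reported here.

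The pairing comes from the animal numbers of the labels. Deviations of IP and input from their group means correlated by 0.0315 to 0.0595 in mutants and by 0.0880 to 0.166 in wild type. Named genes were the 7 members, up to 3 genes of each list with the smallest p, and the 3 genes most correlated with each member. Members and lists were chosen with earlier results of these data known. Alternatives were DESeq2 1.42.0, other scalings, filters and denominators, limma 3.58.1 on log2 TPM (pseudocounts 0.1 and 1), leaving out the block, and leaving out each animal. The spike-in scale, the differences between RNAs in depletion and the rescaled TPM were chosen after seeing the data.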

Additional observations from a re-analysis of the deposited data

Results flagged for a closer look

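Of 37 sets of 4 mutant values examined, 2 held an animal far from the other 3, and chance gives about 5 in 100. Both were MUT 12 in IP. Its TPM ratio of 7SL to Rn7sk was 7.07, against 20.9 to 22.4 in the other mutants; among WT IP libraries WT 17 had 7.20, against 16.3 and 17.6. Its TPM ratio of Rpph1 to Rmrp was 13.97, against 9.36 to 9.70 in the other mutants.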

How the results depend on the processing

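All 5 counted genes, which are 4 distinct RNAs, were called lower in IP under each tool and scaling with all animals, with log2 fold changes of -5.91 to -2.70 in mutants and -5.24 to -2.43 in wild type. Some of these settings called many features: DESeq2 called 6847 of 22918 lower in mutants and 10862 of 34864 in wild type. With at least 10 counts in every library, edgeR called 1977 of 9872 and 5813 of 19518 lower. Leaving out 1 animal gave 3 to 5 calls in mutants and 0 to 5 in wild type, where 2 animals then remained. Over all features the same fits called 325 to 581 lower in mutants, against 815 with all animals, and in wild type 0 without 121, 0 without 140 and 1088 lower without 17, against 2220. Without the block on the animal pairing, 5 were called in mutants, 5 in wild type and 0 for the genotype difference, the same numbers as with it. Over all features that fit called 1787 lower in mutants and 4589 in wild type, against 815 and 2220 with the block. Limma on log2(TPM + 1) moved the median feature of IP against input in mutants to 0.32 and called 5203 higher and 1124 lower, against a median of -0.63 with 1456 higher and 815 lower in edgeR. In input DESeq2 called Rn7s1 and Rn7s2, which have equal counts and stand for 1 RNA, between genotypes. EdgeR called none of the 5 genes there. Per spike-in count, chosen after seeing the data and of unknown added amount, the mean log2 ratio of IP to input was -7.45 for Rn7sk, -7.23 for Rmrp, -6.10 for 7SL and -5.24 for Rpph1. No difference between genotypes whose sign changed had passed a test. As a share of TPM, MUT minus WT was -0.870 percentage points for Rn7sk and -0.0398 for Rmrp in input, and -0.00666 for Rpph1 in IP. Limma on log2(TPM + 0.1) or on log2(TPM + 1) gave log2 fold changes of -0.16 for Rn7sk and -0.093 for Rmrp in input and -0.020 for Rpph1 in IP. With 1 animal left out, MUT minus WT in share of IP counts ran from -0.0457 to 0.234 percentage points for 7SL, -0.00407 to 0.00523 for Rn7sk and -0.00104 to 0.00134 for Rmrp. The log2 fold change of Rmrp in input then ran from -0.032 to 0.41, and in IP those of Rmrp ran from -0.47 to 0.38, of Rn7s1 and Rn7s2 from -0.26 to 0.46, of Rn7sk from -0.29 to 0.0088 and of Rpph1 from -0.15 to 0.31.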
